A study of Mus musculus with 10 samples.

Results

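Endothelial transcripts were followed through 10 pools of embryonic mouse kidney mesenchyme with 10 genes that mark the lining cells of blood vessels. The genes were Kdr, Flt1, Tek, Tie1, Pecam1, Cdh5, Emcn, Esam, Sox17 and Eng, chosen by name with earlier results of these data known. All 10 were measured, by 16 of the 34945 probe sets that the platform annotation gives to a single gene symbol, and they are 10 of the 18193 genes tested. RNA came from metanephric mesenchyme of E11.5 kidneys, freed of the ureteric bud by a short trypsin and pancreatin digestion, with 25 to 30 mesenchymes pooled for each Affymetrix Mouse Genome 430 2.0 array. Of the 10 arrays, 5 held Wnt9b-/- tissue, called mutant here, and 5 held tissue that the sample labels give as Wnt9b+/+ littermates, called wild type here. The series' design text gives the controls as Wnt9b+/- instead, and the sample labels were followed. Wnt9b is a signalling ligand made by the ureteric bud, and the study compared mesenchyme that had developed with and without it. No strain or sex was given. Every array was made from a separate pool of many embryos, so the SD over arrays covers differences between pools. Replicate numbers follow accession order and only name the arrays.

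Blood vessels of the early kidney form from endothelial cells and their precursors that surround and enter the mesenchyme while the first nephrons are being induced. Endothelial growth is driven by vascular endothelial growth factors acting on Kdr and held in check by Flt1, and vessel stability by angiopoietins acting on Tek. The cells are joined by Cdh5, Pecam1 and Esam. In a pool of whole mesenchymes a lower endothelial signal can come from fewer endothelial cells or from less RNA per cell, and these cannot be told apart here.

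Pools were measured as probe-set signals on a linear scale, compared as log2(signal + 1), called log2 signal. The median signal of the probe sets on an array was 62.5 to 78.0, which gives a gauge of how dim a probe set was. Signals of different probe sets are not on a common scale, so levels were compared between arrays only, never between genes. The arrays formed a set of 4 with high signal of the 5' control probe set of 18S ribosomal RNA (1975 to 2587) and a set of 6 with low signal (92.4 to 322). Mutant and wild-type arrays were equally many in either set. Mutant replicate 2 and wild-type replicate 3 had the brightest hybridisation controls, at a mean log2 signal of 11.87 and 11.48, while the other arrays had 9.79 to 10.87. Markers of the labelled tissue were present. Six2, the regulator of nephron progenitors, had signals of 1061 to 1774 in wild type and 580 to 1350 in the mutant, a difference of -0.66 (SE 0.22, adjusted p = 0.785).

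The 10 endothelial genes did not differ detectably between Wnt9b mutant and wild-type mesenchyme. None was called at an adjusted p under 0.05 (limma, Benjamini-Hochberg over all genes), where 0.0055% of all genes were, and 0 of 10 had an unadjusted p under 0.05, where 5.49% of all genes did. An exact permutation test over all arrangements of the arrays also gave 0 of 10 at an unadjusted p under 0.05. Of the 10 genes 9 were higher in the mutant, where 54.9% of all genes were. Their differences ran from -0.06 for Eng to +0.36 for Tie1, with a median of +0.11 against +0.02 over all genes. The count of 9 fell to 7 with quantile normalization or median centring of the arrays, both of which turned Flt1 and Sox17 below 0. For each of the 10 genes the 95% interval of the difference held 0, and the groups overlapped. The upper ends of the intervals ranged from +0.43 for Esam to +0.93 for Tie1, and the lower ends from -0.05 for Cdh5 to -0.69 for Sox17. Rises and falls within those ends were left possible by 5 pools a group.

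**Figure D1:**
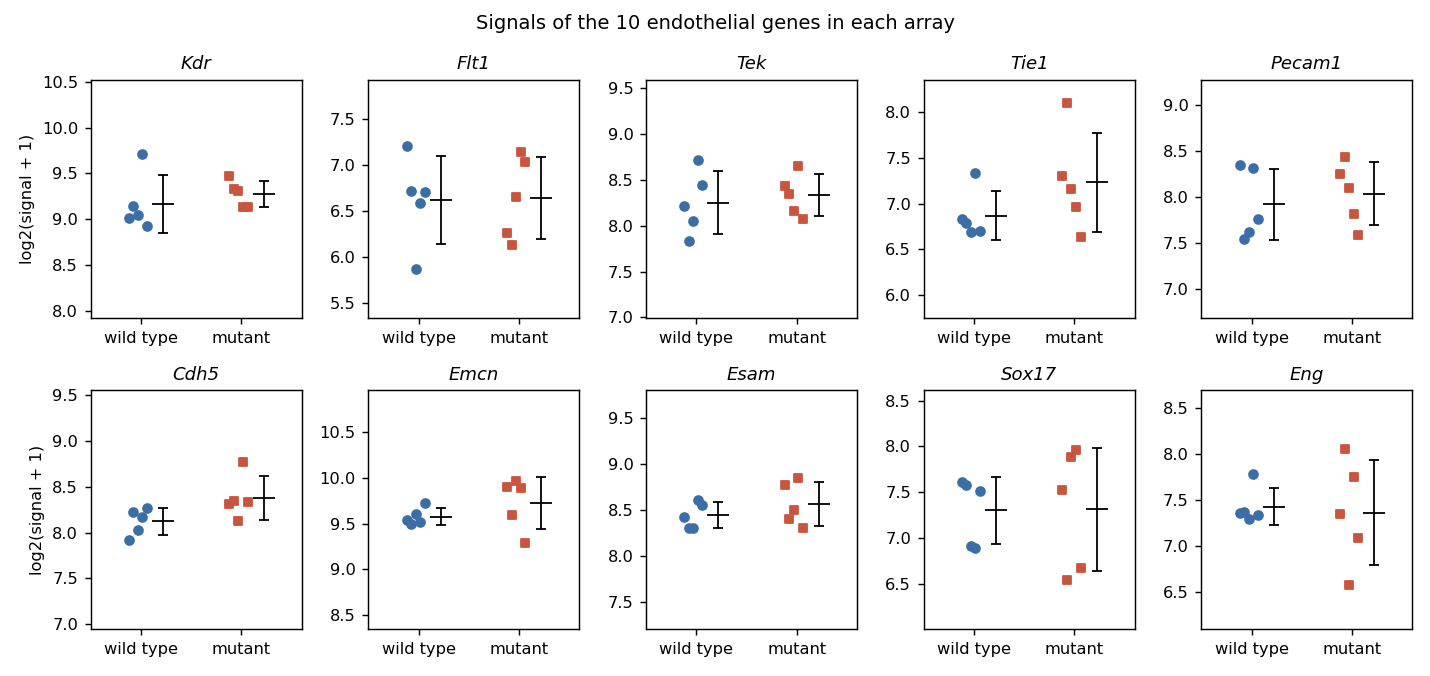
Log2(signal + 1) of the brightest probe set of each gene (vertical axes, each spanning the same width around the gene's mean), with wild-type arrays as blue circles, mutant arrays as red squares, and mean and SD of the 5 arrays beside them. The groups overlap for all 10 genes, and the mutant mean is highest above the wild-type mean for Tie1 (+0.36) and Cdh5 (+0.26).

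Kdr encodes the main signalling receptor for vascular endothelial growth factor A and marks endothelial precursors. Its signals in wild-type replicates 1 to 5 were 517, 564, 527, 837 and 485, and in mutant replicates 1 to 5 they were 709, 644, 634, 561 and 560. Wild-type replicate 4 was the highest of the 10 arrays, and the other 4 wild-type arrays overlapped only with the lowest mutant arrays. The wild-type log2 signal was 9.17 ± 0.31 (SD, n = 5) and the mutant one 9.28 ± 0.14 (SD, n = 5), a difference of +0.11 (95% interval -0.25 to +0.47, adjusted p = 0.999). Without wild-type replicate 4 the difference was +0.24 and still not called.

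Flt1 encodes a receptor that binds the same growth factor and limits its supply to Kdr. The brightest of its 4 probe sets gave 147, 104, 57.5, 95.1 and 103 in wild-type replicates 1 to 5 and 75.8, 69.1, 99.4, 140 and 130 in the mutant ones. High and low arrays occurred in both groups, and the values were close to the array medians, so Flt1 was dim. The difference was +0.03 (SE 0.28), and -0.14, +0.30 and +0.08 on the other 3 probe sets. It was +0.37 over the high-18S arrays and -0.21 over the low-18S ones, so its direction was not settled.

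Tek encodes the receptor of the angiopoietins. Its signals were 295, 227, 265, 418 and 347 in wild-type replicates 1 to 5, and 345, 323, 286, 400 and 268 in mutant replicates 1 to 5. The wild-type range enclosed the whole mutant range. The difference was +0.08 (95% interval -0.33 to +0.49, adjusted p = 0.999), with +0.22 over the high-18S arrays and -0.01 over the low-18S ones.

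Tie1, the partner of Tek with no well established ligand of its own, had the largest difference of the 10. Its signals were 113, 109, 102, 160 and 103 in wild type and 156, 272, 142, 124 and 98.4 in the mutant, each from replicate 1 to 5. Mutant replicate 2 stood highest, wild-type replicate 4 was second, and mutant replicate 5 was lowest. The wild-type log2 signal was 6.87 ± 0.27 (SD, n = 5) and the mutant one 7.23 ± 0.54 (SD, n = 5) (difference +0.36, 95% interval -0.21 to +0.93, adjusted p = 0.976). It was +0.15 without mutant replicate 2, which had the brightest hybridisation controls, and +0.10 when wild-type replicate 3 was left out as well. It was +0.06 over the high-18S arrays and +0.56 over the low-18S ones.

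The stretches of 250 bases before the gene starts of the angiopoietin receptor pair Tek and Tie1, of Flt1 and of Emcn are shown next. Against the mean of the other 9 genes, each standardised over the 10 arrays, Tek had a Pearson r of 0.778, Emcn of 0.459, Tie1 of 0.426 (Spearman rho 0.782) and Flt1 of -0.02. They are RefSeq sequences of GRCm38.p6, written 5' to 3' on the gene's strand. Capitals mark AGGAAG, read on either strand, a form of the core bound by ETS factors, which include the endothelial regulators Erg, Fli1 and Ets1.
Tek, chr4:94739039-94739288, plus strand: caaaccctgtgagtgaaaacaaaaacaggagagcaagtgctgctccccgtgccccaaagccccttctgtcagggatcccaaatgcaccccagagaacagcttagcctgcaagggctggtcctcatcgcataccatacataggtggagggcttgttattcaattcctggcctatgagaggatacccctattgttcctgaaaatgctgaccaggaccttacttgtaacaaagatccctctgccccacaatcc
Tie1, chr4:118489850-118490099, minus strand: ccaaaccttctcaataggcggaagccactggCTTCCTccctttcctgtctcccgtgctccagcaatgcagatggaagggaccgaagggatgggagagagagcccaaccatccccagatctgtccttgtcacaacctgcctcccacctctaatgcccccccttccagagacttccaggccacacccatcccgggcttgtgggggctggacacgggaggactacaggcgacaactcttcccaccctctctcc
Flt1, chr5:147726012-147726261, minus strand: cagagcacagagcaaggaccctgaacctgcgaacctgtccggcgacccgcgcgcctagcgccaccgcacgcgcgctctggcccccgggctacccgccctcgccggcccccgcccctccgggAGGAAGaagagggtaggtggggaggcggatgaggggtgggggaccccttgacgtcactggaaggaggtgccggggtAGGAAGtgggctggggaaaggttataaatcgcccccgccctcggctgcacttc
Emcn, chr3:137340828-137341077, plus strand: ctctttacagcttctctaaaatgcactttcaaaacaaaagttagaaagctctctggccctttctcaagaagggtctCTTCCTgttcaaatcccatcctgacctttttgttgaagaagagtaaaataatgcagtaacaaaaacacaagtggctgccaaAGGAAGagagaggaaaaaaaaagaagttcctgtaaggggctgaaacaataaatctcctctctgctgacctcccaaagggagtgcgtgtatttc
The RefSeq table held a promoter for 6 of the 10 genes, these 4, Kdr and Eng. AGGAAG on either strand was in 4 of the 6 (Emcn, Eng, Flt1 and Tie1), and in 29.2% of 27025 promoters of that length. ACAAT, a core of SOX factor sites, was in 2 of 6 (Emcn and Tek) and in 28.3% of all. The E-box CANNTG was in 5 of 6 and in 66.0% of all. The motif AGATAA, bound by factors of the Gata2 family, was in 0 of 6 and in 10.3% of all. Both strands were searched for each, and no motif contains another. With 6 promoters these shares describe the sequences only.

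Cdh5 encodes VE-cadherin, the adhesion molecule of endothelial adherens junctions, and had the smallest p of the 10. Its signals were 241, 298, 261, 287 and 307 in wild-type replicates 1 to 5 and 317, 325, 278, 436 and 321 in mutant replicates 1 to 5. Of the mutant arrays 4 lay above all 5 wild-type arrays, and replicate 3 lay among them. The wild-type log2 signal was 8.12 ± 0.15 (SD, n = 5) and the mutant one 8.38 ± 0.24 (SD, n = 5), 1.19-fold higher (difference +0.26, 95% interval -0.05 to +0.56, adjusted p = 0.942). A dimmer probe set gave +0.49, at signals of 22.5 to 78.4. The difference of the brighter one was +0.16 without mutant replicate 4, and +0.30 and +0.22 within the high-18S and low-18S arrays. The mean of both probe sets had an unadjusted p of 0.0476 and was not called (adjusted p = 0.892).

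Pecam1, an adhesion molecule of endothelium that platelets and leukocytes also carry, had signals of 326, 186, 196, 318 and 216 in wild type and 305, 345, 273, 225 and 192 in the mutant. Arrays above 300 and arrays under 200 occurred in both groups. The difference was +0.12 (95% interval -0.38 to +0.61) and turned to -0.05 without mutant replicate 2 and wild-type replicate 3. Esam, an immunoglobulin-type molecule of endothelial tight junctions, was among the steadiest of the 10. It had signals of 344, 316, 316, 391 and 376 in wild type and 437, 336, 361, 460 and 315 in the mutant. Mutant replicates 4 and 1 were the highest arrays, and mutant replicate 5 was the lowest (difference +0.12, 95% interval -0.18 to +0.43).

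Emcn encodes endomucin, a sialomucin of venous and capillary endothelium. Wild-type signals were close together, at 742, 722, 777, 732 and 844. Mutant signals were 952, 771, 996, 945 and 626, so that 3 mutant arrays lay above all wild-type arrays and mutant replicate 5 lay below all of them. The difference was +0.15 (95% interval -0.17 to +0.47), or +0.26 without mutant replicate 5. It was -0.02 over the high-18S arrays, which include that replicate, and +0.26 over the low-18S ones.

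Eng encodes endoglin, a co-receptor for ligands of the TGF-beta family. Its brighter probe set gave 163, 165, 156, 219 and 161 in wild type and 162, 265, 94.4, 215 and 135 in the mutant. The mutant arrays thus held both the highest and the lowest value, with replicates 2 and 3. The difference was -0.06 (SE 0.26), and +0.13 without mutant replicate 3. The second probe set gave +0.37 (SE 0.20), at signals of 72.3 to 150, so the probe sets differed in sign. Sox17, a transcription factor of arterial endothelium, had signals of 194, 191, 120, 118 and 182 in wild type and 183, 92.2, 236, 248 and 101 in the mutant. Both groups split into high and low arrays, and the difference was +0.01 (SE 0.32). That probe set has a name ending in _x_at, which Affymetrix gives to probe sets whose probes can match other sequences. The second probe set of Sox17 was steadier, at 120 to 151 in wild type and 104 to 169 in the mutant, with a difference of -0.02 (SE 0.15).

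**Figure D2:**
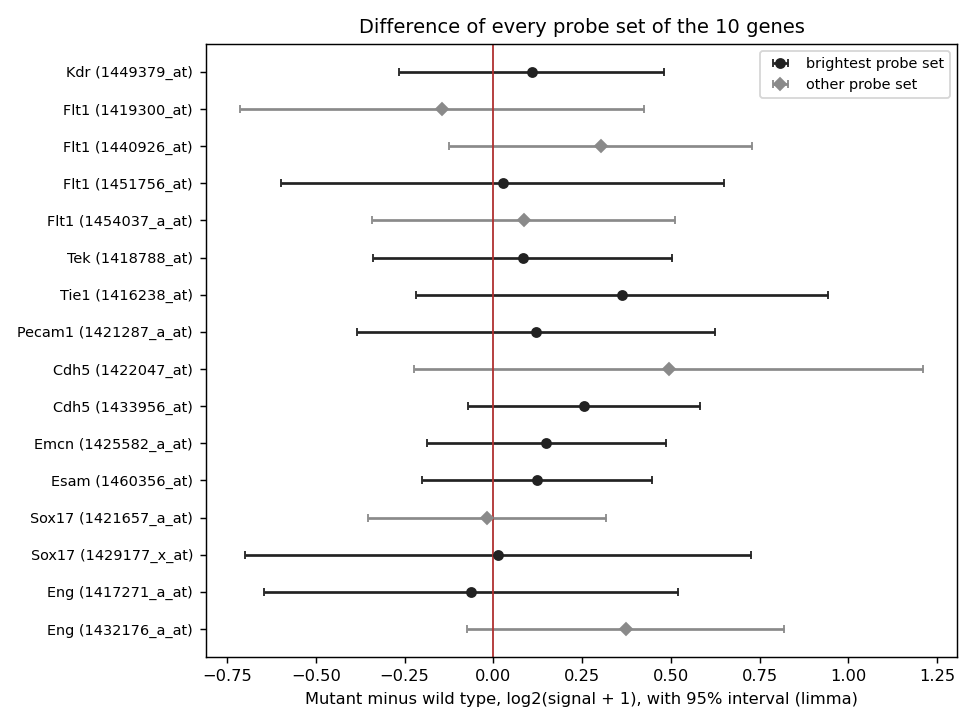
Mutant minus wild-type difference in log2(signal + 1) for each of the 16 probe sets (horizontal axis), with the 95% interval from limma as bars, the brightest probe set of a gene in black and the others in grey. The interval holds 0 for all 16, and the second probe sets of Cdh5 (+0.49) and Eng (+0.37) lie further right than the brightest ones.

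The genotypes differed in mean endothelial level by less than the SD over the pools of either group. The mean log2 signal of the 10 genes was 8.05, 7.90, 7.74, 8.16 and 7.99 in wild-type replicates 1 to 5 and 8.16, 8.13, 8.04, 8.29 and 7.82 in mutant replicates 1 to 5. The group means, 7.97 ± 0.16 and 8.09 ± 0.18 (SD, n = 5), were 0.12 apart. From lowest to highest the wild-type arrays spanned 0.42 and the mutant arrays 0.48. Mutant replicate 4 was among the highest 3 arrays for 7 of the 10 genes and among the lowest 3 for 0. Wild-type replicate 3 was among the lowest 3 for 8 genes, and mutant replicate 5 for 7. Array-wide levels moved too, with wild-type replicate 3 having the lowest median over all genes, 6.96 against 7.05 to 7.19. After centring every array on its median, mutant replicate 4 was still the highest array and mutant replicate 5 the lowest, and the difference between the group means was 0.06.

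**Figure D3:**
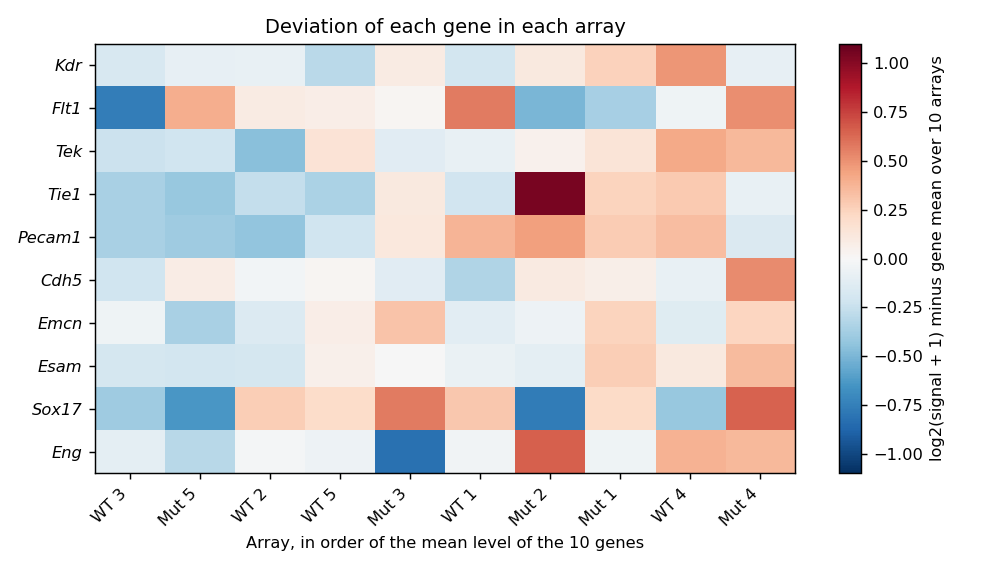
Deviation of log2(signal + 1) from the gene's mean over the 10 arrays (colour, red above and blue below) for the 10 genes in rows and the arrays in columns, ordered by the mean level of the 10 genes. Mutant and wild-type arrays are interleaved along the order, from wild-type replicate 3 (7.74) to mutant replicate 4 (8.29), while Flt1 and Sox17 follow the order least.

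A list of 21 other endothelial surface and junction genes, which shares no gene with the 10, ranked the pools almost alike. Its mean log2 signal was highest in mutant replicate 4 (8.30) and lowest in wild-type replicate 3 (7.77), the same arrays as for the 10 genes. In each array the mean of the 10 genes and that of the 21 genes lay within 0.07 of each other. That closeness depends on which probe sets each list holds, so it is not read as likeness. With each gene standardised over the arrays, the scores of both lists had a Pearson r of 0.965 and a Spearman rho of 0.976 over the 10 arrays. The r was 0.951 without mutant replicate 4 and wild-type replicate 3, the arrays farthest from the median, and 0.944 after median centring. Scores of the other 12 lists had r from -0.72 (hypoxia response) to 0.69 (pericytes and smooth muscle) with the 10 genes. Without the same 2 arrays these values were -0.69 and 0.24. Other lists then followed the 10 genes more closely, with r from 0.04 to 0.69 for ureteric bud genes and from 0.10 to 0.67 for erythroid genes. Metanephric mesenchyme genes went from -0.51 to -0.67. Endothelial transcription factors had an r of 0.67 and a rho of 0.89 over all arrays, and an r of 0.32 without the same 2. All these values are descriptions, since all scores come from the same 10 arrays and share their labelling and scaling.

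**Figure D4:**
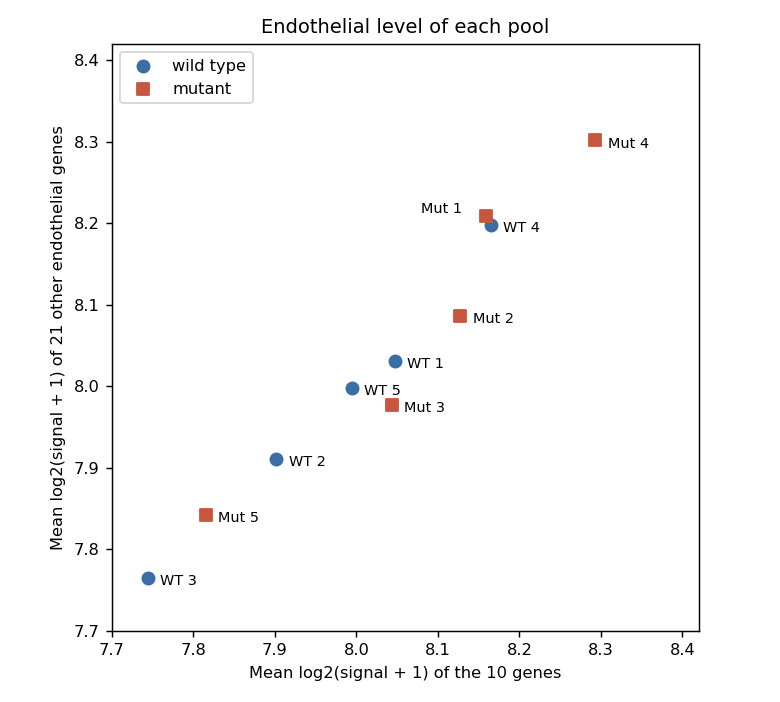
Mean log2(signal + 1) of the 10 endothelial genes (horizontal axis) and of the 21 other endothelial genes (vertical axis) in each array, with wild-type arrays as blue circles and mutant arrays as red squares. The arrays lie along a line from wild-type replicate 3 to mutant replicate 4, with both groups spread along it.

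The 10 genes did not take part in this shared level equally. Against the mean of the other 9, each standardised over the arrays, Esam had an r of 0.838 (rho 0.867) and Tek of 0.778 (rho 0.782). Tie1 had an r of 0.426 and a rho of 0.782, with mutant replicate 2 far above the other arrays. Sox17 had an r of 0.165 and Flt1 of -0.02, the lowest. Against the mean of the 21 other genes, standardised likewise, Esam had an r of 0.939 and Flt1 of 0.143. Over the 45 pairs of the 10 genes the median r was 0.243, from -0.42 to 0.821, against 0.0036 over all pairs of the 9281 genes with a mean log2 signal of 7 or more. With array medians and group means removed it was 0.147 against 0.0683. The genes also differed in how much they varied: the SD within groups was 0.195 for Esam and 0.197 for Cdh5. Its median over all genes with a mean log2 signal of 7 or more was 0.221. The SD was 0.540 for Sox17 and 0.465 for Flt1, whose mean log2 signal lay below 7.

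Among genes outside the 10, those whose log2 signal followed their standardised mean most closely over the 10 arrays were Sema5a (r 0.930), Clec14a (0.912), Inpp5k (0.902), Tet2 (0.895), Cd93 (0.855), Frmd6 (0.849), Ptgr2 (0.847) and Cblc (0.835). Clec14a and Cd93 are related lectin-like surface proteins of endothelium, and both were on the list of other endothelial genes. Sema5a, Inpp5k, Tet2, Frmd6, Ptgr2 and Cblc were on none of the endothelial and vessel lists. How high an r chance alone would give among so many genes over 10 arrays was not assessed. Of the 18 genes of that list bright enough to be ranked, 4 were among the 100 closest of 9272, namely Clec14a, Cd93, Cldn5 and Icam2. The median r of the 18 was 0.383, against 0.0028 over all ranked genes. None of the 8 closest genes was called between the genotypes, with differences from +0.05 for Cd93 to +0.38 for Clec14a.

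The other genes of the pathways around the 10 were counted in the same fit, and none of those on the 5 vascular and signalling lists was called. Of 10 ligands, angiopoietins and co-receptors, 8 were higher in the mutant, with a median of +0.23, and 2 had an unadjusted p under 0.05, both higher, where 3.41% of all genes were. Pgf, the placental growth factor that binds Flt1, had signals of 285, 332, 299, 270 and 317 in wild type and 440, 772, 541, 355 and 469 in the mutant. All 5 mutant arrays lay above all wild-type arrays, as was so for 0.654% of all genes (1.66-fold, difference +0.73, SE 0.19, adjusted p = 0.551). Angpt2, the angiopoietin that can oppose Tek signalling, differed by +0.40 (SE 0.16, adjusted p = 0.880), with a signal of 238 in mutant replicate 4 and of 109 to 167 elsewhere. Nrp2, a neuropilin co-receptor, differed by +0.37 (SE 0.19). Vegfa, the ligand of Kdr and named here after its value was seen, differed by -0.08 (SE 0.12), at signals of 325 to 422 in wild type and 290 to 407 in the mutant.

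Of 15 endothelial transcription factors 12 were higher (median +0.15), with no unadjusted p under 0.05. Tal1, a factor of blood and endothelial precursors, differed by +0.37 (SE 0.19), Mef2c by +0.22 (SE 0.13) and Erg, an ETS factor of endothelium, by +0.17 (SE 0.11). Of the 21 other surface and junction genes 15 were higher (median +0.09), again with no unadjusted p under 0.05. Clec14a differed by +0.38 (SE 0.21), Robo4, a receptor of endothelial guidance, by +0.34 (SE 0.23), and Cldn5, the claudin of endothelial tight junctions, by +0.23 (SE 0.13).

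Arterial and venous genes were higher in 6 of 13 (median -0.02), with 2 of the 13 lower at an unadjusted p under 0.05, where 2.08% of all genes were. Cxcr4, a chemokine receptor that mesenchyme also expresses, had signals of 134 to 205 in wild type and 37.1 to 91.5 in the mutant, without overlap, where 0.555% of all genes were lower without overlap (difference -1.38, SE 0.24, adjusted p = 0.283). Acvrl1, the receptor kinase that signals with endoglin, differed by -0.45 (SE 0.19, adjusted p = 0.887), at signals of 69.8 to 110 in wild type and 50.9 to 87.1 in the mutant. Hey1, a Notch target, differed by -0.30 (SE 0.13). On the list of TGF-beta and BMP signalling around endoglin, which also holds Acvrl1, 10 of 12 genes were higher (median +0.15), among them Tgfb1 (+0.32, SE 0.17) and Bmpr2 (+0.20, SE 0.11).

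**Figure D5:**
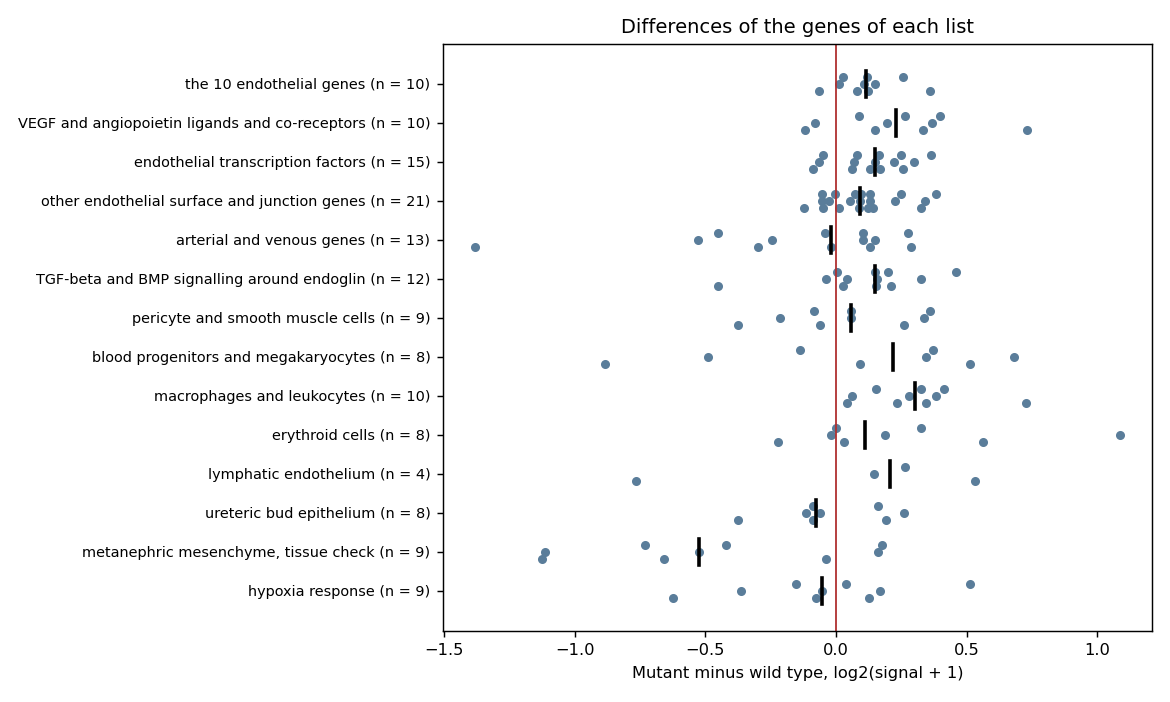
Mutant minus wild-type difference in log2(signal + 1) of each measured gene (points) on the 10-gene list and 13 related lists, with the list's median as a black bar. The median of the 10 endothelial genes is +0.11 and that of the metanephric mesenchyme genes -0.52.

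Markers of other cells in the pools were read beside the endothelial genes. Metanephric mesenchyme genes were lower in 7 of 9 (median -0.52), and none was called. At an unadjusted p under 0.05, 5 of the 9 were lower, where 2.08% of all genes were. Of the 9, 3 were lower without overlap, where 0.555% of all genes were, namely Gdnf (-1.12, SE 0.23), Cited1 (-1.11, SE 0.26) and Eya1 (-0.73, SE 0.20). The summed signal of the 9 was 8272 to 10822 in wild type and 5390 to 9565 in the mutant. That of the 10 endothelial genes was 2777 to 3576 and 2746 to 3754. A sum mostly follows the brightest probe sets of its list, so it is read between the groups only, not between lists. Macrophage and leukocyte genes were higher in 10 of 10 (median +0.30), none called, with C1qa at +0.73 (SE 0.27), Tyrobp at +0.38 and Adgre1 at +0.33. Of these 10 genes, 1 was higher at an unadjusted p under 0.05, where 3.41% of all genes were. Their summed signal was 1485 to 2148 in wild type and 1427 to 2794 in the mutant. Blood progenitor and megakaryocyte genes mark cells of which some carry Pecam1 and Tek as endothelium does. They were higher in 5 of 8, none called. At an unadjusted p under 0.05, 2 of the 8 were higher and 1 was lower, where 3.41% and 2.08% of all genes were. Among them Kit was higher without overlap, where 0.654% of all genes were (+0.68, SE 0.18, adjusted p = 0.551). Pf4, a platelet gene, differed by +0.34 (SE 0.14) and Myb by -0.49 (SE 0.18). Runx1, named after its value was seen, had the largest difference of the list, -0.88 (SE 0.43). The brightest of its 6 probe sets gave 12.9 in mutant replicate 1, 54.3 to 71.6 in the other mutant arrays and 68.5 to 98.3 in wild type. That 1 low array thus weighed on the difference. The summed signal of the 8 genes was 1595 to 1961 in wild type and 1976 to 2640 in the mutant, of which Kit gave 402 to 723 and 752 to 1160. Their mean log2 signal overlapped, at 7.24 ± 0.16 in wild type and 7.30 ± 0.25 in the mutant (SD, n = 5). Whether these cells contributed to the endothelial values was not tested.

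Pericyte and smooth muscle genes were higher in 5 of 9 (median +0.06), with Notch3 at +0.36, Rgs5 at +0.34 and Cspg4 at +0.26. Acta2 (-0.37, SE 0.39) and Tagln (-0.21, SE 0.36), named after their values were seen, lay furthest below 0. The summed signal of the list was 5595 to 6874 in wild type and 5925 to 8414 in the mutant. Erythroid genes were higher in 5 of 8 (median +0.11), with a summed signal of 26319 to 54781 in wild type and 28825 to 48446 in the mutant. Gata1 was at +0.56, the dim Hba-a1 at +1.09 and Epor at -0.22. Lymphatic genes were higher in 3 of 4, with Flt4, which blood vessels of the embryo also express, at +0.27, and the dim Prox1 and Lyve1 at -0.77 and +0.53. Ureteric bud genes were higher in 3 of 8 (median -0.07), with Wnt11 at +0.26, Gata3 at +0.19 and Emx2 at -0.37. Hypoxia response genes were higher in 4 of 9 (median -0.05), with Ddit4 at +0.51 and Car9 at -0.36. Hk2 was lower without overlap, where 0.555% of all genes were, at -0.62 (SE 0.16, adjusted p = 0.544). No gene of these 5 lists was called.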

How the data were processed

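Intensities of 45101 probe sets, 64 of them controls, were deposited by the authors in 1 table for 10 Affymetrix arrays. The method that summarised the probes was not given in the sources used here. Every deposited array had a trimmed mean of 250.0 (2% off each end), so arrays had been scaled. Array medians differed by under 0.5 on the log2 scale, so no further normalization was applied. A difference on the log2(signal + 1) scale understates changes of dim genes. Of 34945 probe sets with 1 symbol, RefSeq held the gene identifier of 34741. A gene's brightest probe set stood for it. The number of arrays limits the precision, and no detection calls were used.

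The test was limma 3.58.1 (R 4.3.3, lmFit and eBayes, two-sided, Benjamini-Hochberg over 18193 genes), tested on simulated data first. The fit of every probe set was adjusted over 34945. Members and lists were chosen with earlier results of these data known. A few listed genes are not reported here, and list counts are over the genes measured. Genes named are the 10 members, called genes of each list or else the 3 with the smallest p, and the 8 most alike genes with a mean log2 signal of 7 or more. Vegfa, Six2 and Icam2 were named after their values were seen. Alternatives covered probe sets, a filter, scaling, the pseudocount, moderation, weights, blocks and left-out arrays.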

Additional observations from a re-analysis of the deposited data

Results flagged for a closer look

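The gap between the most extreme array of a group and its neighbour was divided by the group's range. The values were the 16 probe sets, the 8 most alike genes, the 3 genes with the smallest p of each related list, and both endothelial means. Genes named only after their values were seen, such as Runx1, were not included. This was done in 126 groups of 5 values, of which 9 had an array set apart. About 1 in 20, 6.3 of them, would by chance. Wild-type replicate 4 stood above the other wild-type arrays for 3 receptor genes of the endothelium, with log2 signals of 9.71 against 8.92 to 9.14 for Kdr, 7.34 against 6.69 to 6.84 for Tie1, and 7.78 against 7.29 to 7.37 for the brighter Eng probe set. Wild-type replicate 3 was low for a dimmer Flt1 probe set, at 5.77 against 6.30 to 6.46. Among mutant arrays, replicate 4 was high for Angpt2 (7.90 against 7.27 to 7.39) and replicate 5 low for Cldn5 (8.98 against 9.31 to 9.40). Mutant replicate 2 was low for Mef2c (7.73 against 7.99 to 8.08), for the dim Prox1 (2.14 against 4.82 to 5.03) and for Car9 (4.49 against 5.68 to 6.02). No explanation was tested for these values.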

How the results depend on the processing

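The count of called endothelial genes was 0 under each of the 23 other fits and under the exact permutation test. The median difference of the 10 stayed above 0 in all 23, from 0.06 with median centring to 0.18 without mutant replicate 5 or wild-type replicate 4. With the replicate block for shared title wording it was 0.08 and 0 of 10 were called. Arrays in the 3 such pairs deviated together with correlations of 0.0982, 0.0987 and 0.143 over genes, and nothing in the labels says that they were paired. No gene of the 10 changed sides of the threshold, and Kdr, Tie1, Cdh5 and Esam kept their direction in all 23. Directions turned when probe sets of a gene were averaged for Sox17 (-0.0030) and Eng (0.15), with quantile normalization for Flt1 (-0.056) and Sox17 (-0.025), with median centring for Flt1 (-0.032) and Sox17 (-0.045), and with array weights for Sox17 (-0.055). They turned within the high-18S arrays for Emcn (-0.022), Sox17 (-0.23) and Eng (0.065), within the low-18S arrays for Flt1 (-0.21) and Tek (-0.011), and without mutant replicate 2 and wild-type replicate 3, whose hybridisation controls were brightest, for Flt1 (-0.033) and Pecam1 (-0.053). On leaving out each array in turn Sox17 ran from -0.15 to 0.21, Flt1 from -0.16 to 0.17, Eng from -0.24 to 0.13 and Tek from -0.022 to 0.20. The causes were not tested. The SE of the difference was largest for Sox17 (0.32), then Flt1 (0.28), whose signals were dim.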

Other observations

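Within the gene lists, Nrp1, a neuropilin co-receptor of Kdr, had signals of 2907 to 4594 in the 4 high-18S arrays and 1822 to 2439 in the other 6, without overlap, and differed by +0.15 (SE 0.27) between the genotypes. The share of all genes that separate in this way between these sets of arrays was not counted. Whether the separation is unusual is therefore not known. Only the brightest of the 4 Nrp1 probe sets is given. Vegfc, the lymphatic growth factor, had its highest signals, 645 and 454, in mutant replicates 4 and 5, and its lowest, 171 and 182, in mutant replicates 2 and 1. Ramp2, a receptor partner for adrenomedullin in endothelium, was higher in all 5 mutant arrays than in any wild-type array by a small amount (+0.13, SE 0.09, adjusted p = 0.975). Such a separation was seen for 0.654% of all genes. All 3 genes were chosen after their values were seen.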
